A study of Mus musculus with 12 samples.

Results

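The core circadian clock genes were examined in mouse kidneys with and without ischemia. The 10 genes were chosen by symbol as Arntl, Clock, Per1, Per2, Per3, Cry1, Cry2, Nr1d1, Nr1d2 and Dbp, of the 23420 genes in the count table, and all 10 were among the 11664 genes that passed the filter on low counts. The rule itself takes symbols only and no measured value, and the symbols were picked with earlier results of these data known.

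The mammalian clock is a loop of transcription. ARNTL (also called BMAL1) and CLOCK bind E-boxes as a pair and activate the Per, Cry, Nr1d1, Nr1d2 and Dbp genes, and the PER and CRY proteins then hold that pair in check. NR1D1 and NR1D2 (REV-ERB alpha and beta) repress Arntl and so set the phase in which Arntl runs, while DBP, TEF and HLF carry the rhythm to output genes through D-boxes, so that in a rhythmic tissue such as kidney Arntl and the Nr1d1, Per and Dbp group peak at opposite times of day.

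RNA-seq was performed on 12 kidneys of male C57BL/6J mice aged 8 to 15 weeks and housed with 12 h of light a day. The 4 control kidneys were taken by nephrectomy, and 4 plus 4 kidneys were taken 24 h after a clamping of the renal pedicle for 20 min, with the mouse conscious or under general anaesthesia. The comparison asks what ischemia and reperfusion did to the kidney transcriptome and whether the state of the mouse during the clamping mattered. The title and the group field of the 8 ischemic samples name opposite states, so the neutral names ischemia set A (anaesthetised in the title, conscious in the group field) and ischemia set B (the reverse) were kept and no difference between them is given a direction in terms of anaesthesia. The treatment text of the control samples also carries the 20 min of ischemia and the 24 h, against their control label. By the methods, ketamine and xylazine were given for surgery and before the kidneys were collected, and a conscious clamping began and ended with a short isoflurane sedation. The methods also describe an earlier surgery to place the clamp, buprenorphine after it and again before the ischemia, and housing in a warmed incubator. Whether the control mice had any of these is not stated, so they cannot be told apart from the ischemia either. The hour of the day at which each kidney was taken is not given in the sources used here, so the time of collection and the group cannot be told apart, and collection at nephrectomy separates the controls from the ischemic kidneys as well.

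Library totals ran from 15367342 to 44793350 counts, so that 3 counts corresponded to between 0.0661 and 0.190 CPM (the count of a gene scaled to a common library size by TMM). Kidney markers were present: Slc34a1, the proximal tubule phosphate transporter, lay at 4559 to 5186 CPM in controls and at 209 to 685 CPM in ischemic kidneys. All 5 proximal tubule markers fell in both sets, and their summed CPM went from 6402 to 7159 over the controls to 667 to 1234 over set A and 378 to 1293 over set B. The 3 injured-tubule markers (Havcr1, Lcn2, Krt20) rose in both sets, from 0 to 0.240 CPM summed in controls to 36.1 to 93.4 CPM over the ischemic kidneys. The summed leukocyte markers, 5 of 6 with a row, ranged over 2.93 to 7.19 CPM (controls), 1.5 to 8.10 (set A) and 3.48 to 16.1 (set B). Only 3 of them could be tested, Lyz2 and S100a8 being below the low-count filter, and of these edgeR called 0 against control, with 0 at an unadjusted p below 0.05. The part of this change in tubular content in the results below was not tested, and in bulk tissue fewer cells of a type and less RNA per cell cannot be told apart.

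Among the clock genes, the REV-ERB pair was lower after ischemia, and no other member passed the test across all genes. Nr1d1 and Nr1d2 fell in set A, in set B and in the mean of both sets against control, and their ischemic values did not overlap with those of the controls. Per1 was higher on average after ischemia without passing the threshold, Clock had almost the same mean in every group, and the groups overlapped for Arntl, Per2, Per3, Cry1, Cry2 and Dbp. Thus 2 of 10 members were called in set A, where 22.3% of all genes tested were called, 2 of 10 in set B, where 22.8% were, and 2 of 10 for the mean of the sets, where 26.4% were (14.2% lower and 12.2% higher). With 8 ischemic kidneys against 4 controls, 2 of 10 members did not overlap in CPM, against 20.1% of all genes tested. The members were thus called at a share near that of all genes. The median log2 fold change over the 10 members, which went both ways, was -0.31 in set A, -0.11 in set B and -0.53 for the mean, beside -0.02, -0.02 and -0.03 over all genes tested.

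**Figure D1:**
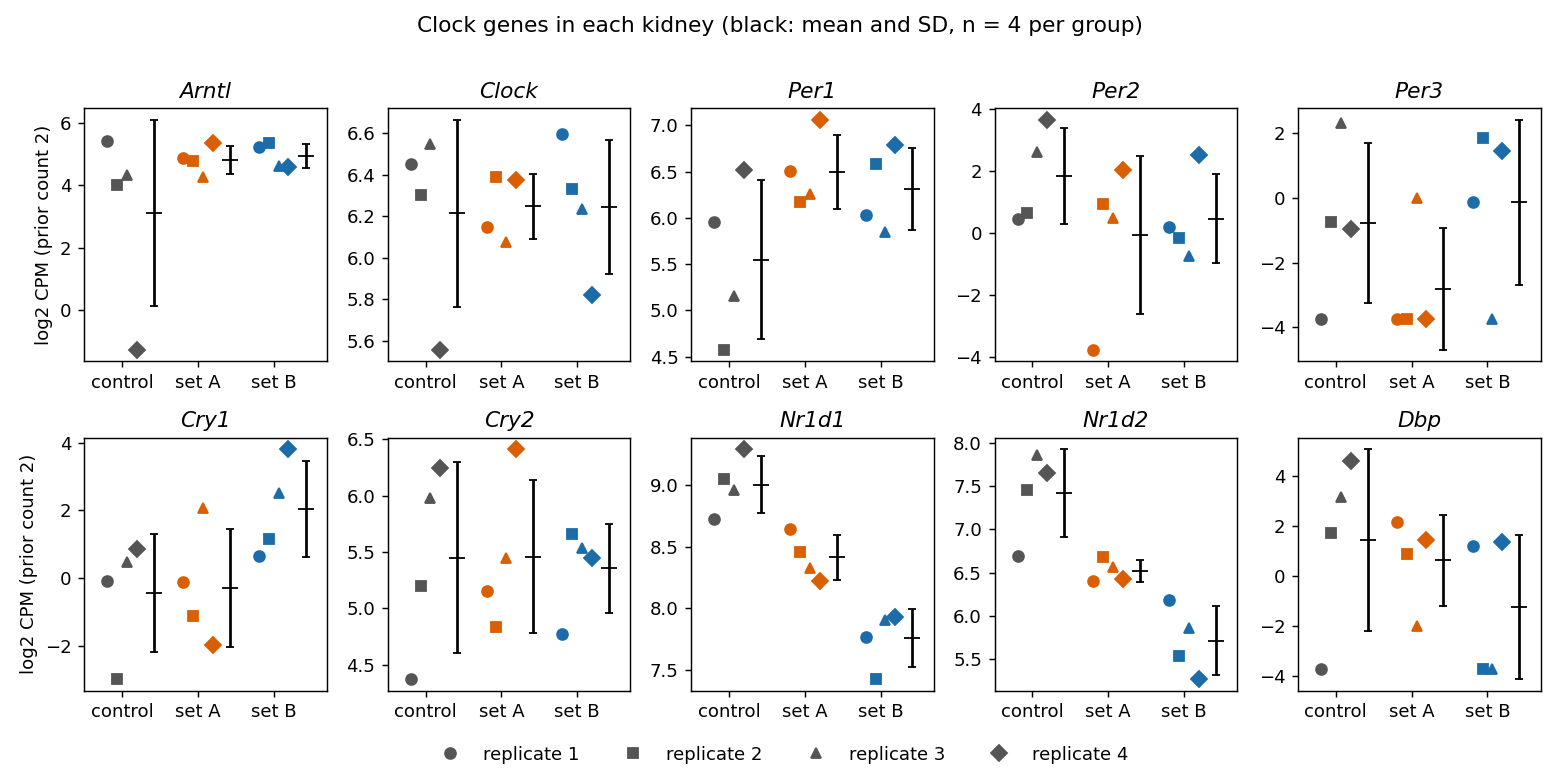
Expression of the 10 clock genes in each kidney as log2 CPM with a prior count of 2 (vertical axis, its own range in each panel) for control, ischemia set A and ischemia set B; each symbol is 1 kidney, its shape gives the replicate number, and the black marks are the mean and SD of 4 kidneys. The ischemic symbols lie below every control symbol for Nr1d1 and Nr1d2 alone, and control replicate 4 is the low symbol for Arntl and Clock.

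Nr1d1 encodes the haem-binding nuclear receptor REV-ERB alpha, a repressor of Arntl. In controls 1 to 4 it was measured at 423, 530.0, 497 and 627 CPM. In ischemia set A the 4 kidneys gave 401, 353, 322 and 299 CPM, and in set B they gave 217, 172, 240.2 and 244 CPM. The 3 groups formed separate ranges, controls highest, set A next and set B lowest. By edgeR's quasi-likelihood test (Benjamini-Hochberg adjustment) the log2 fold change was -0.60 (SE 0.15, adjusted p = 0.00475) in set A, which is a level 1.51-fold lower than in controls. In set B it was -1.25 (SE 0.15, adjusted p = 2.69e-06), 2.38-fold lower. For the mean of the sets it was -0.92 (SE 0.12, 95% interval -1.18 to -0.67), with an exact permutation p of 0.00404 for 8 kidneys against 4, two-sided, where the smallest possible p was 0.00202.

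Nr1d2 encodes REV-ERB beta, which shares the DNA sites of REV-ERB alpha. It was measured at 104, 176, 234 and 201 CPM in controls 1 to 4. The values were 84.6, 103, 94.3 and 85.7 CPM in set A and 72.8, 46.4, 57.9 and 38.3 CPM in set B. Control replicate 1, at 104 CPM, was close to the highest kidney of set A, and the other 3 controls stood clear. Its log2 fold change was -0.96 (SE 0.22, adjusted p = 0.00304, edgeR's quasi-likelihood test, Benjamini-Hochberg adjusted) in set A and -1.73 (SE 0.23, adjusted p = 9.71e-06) in set B, or 1.94-fold and 3.31-fold lower. For the mean of the sets it was -1.34 (SE 0.18, 95% interval -1.73 to -0.96) with an exact permutation p of 0.00202, the smallest that 8 against 4 allows. Leaving out any 1 of the 12 kidneys kept the calls of both genes in set A, in set B and in the mean, with the mean log2 fold change between -1.01 and -0.82 for Nr1d1 and between -1.53 and -1.21 for Nr1d2.

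Part of the Nr1d1 exon sequence is also annotated as exon of another gene. Nr1d1 lies on chromosome 11 (98767932 to 98775333, minus strand, GRCm38), and 263 bases of its exons, or 8.55% of its exon length, are also exon of Thra, the thyroid hormone receptor alpha gene on the opposite strand. The library kit kept strand, but the strand setting of the counting is not given in the sources used here, so reads of that stretch may not be assigned with certainty. Thra was counted at 691 to 918 CPM in controls, while set A spanned 386 to 625 and set B 458 to 834 CPM. It fell in set A (log2 fold change -0.67, SE 0.17, adjusted p = 0.00726 by edgeR's quasi-likelihood test, Benjamini-Hochberg adjusted), whereas in set B its log2 fold change was -0.45 (SE 0.17, adjusted p = 0.0686). In set A the change of Nr1d1, -0.60, was the smaller of the pair, in set B that of Nr1d1, -1.25, was the larger, and the part of the shared bases in either value was not tested. Nr1d2 shared no exon bases with another annotated gene.

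The 250 bases before the start of each gene are given because both genes were lower after ischemia; they were taken from RefSeq (GRCm38.p6), run 5′ to 3′ in the direction of the gene, and carry the searched motifs in capitals.
Nr1d1 (GRCm38.p6, chr11:98775378-98775627, minus strand): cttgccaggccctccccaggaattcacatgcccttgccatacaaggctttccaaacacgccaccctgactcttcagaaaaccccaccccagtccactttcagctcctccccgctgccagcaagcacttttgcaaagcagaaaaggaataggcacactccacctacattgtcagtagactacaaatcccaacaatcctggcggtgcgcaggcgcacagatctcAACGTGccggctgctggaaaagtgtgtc
Nr1d2 (GRCm38.p6, chr14:18239107-18239356, minus strand): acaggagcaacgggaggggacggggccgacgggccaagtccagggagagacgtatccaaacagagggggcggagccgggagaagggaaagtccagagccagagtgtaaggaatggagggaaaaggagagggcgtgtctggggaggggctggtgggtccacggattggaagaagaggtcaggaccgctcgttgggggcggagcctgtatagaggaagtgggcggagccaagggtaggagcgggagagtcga
The motifs searched on both strands, in windows from 250 bases before to 50 bases after each start, were the E-box CACGTG, the variant E'-box CACGTT, which reads as AACGTG on the other strand, the D-box TTATGTAA, the RORE core TAGGTCA and the CRE TGACGTCA. The Nr1d1 window held 1 E'-box at position -28 from the start, whereas the Nr1d2 window held none of the 5 motifs. Of 32851 windows of 300 bases, 7.15% held the E-box, 4.68% the E'-box, 0.938% the D-box, 2.61% the RORE core and 1.79% the CRE. A match is a description of the letters and not a site shown to be used.

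The sets were also compared with each other. By edgeR's quasi-likelihood test (Benjamini-Hochberg adjustment) 0 of 10 clock genes were called between set B and set A, and 2 of 10, Nr1d1 and Nr1d2, had an unadjusted p below 0.05; over all genes 0.00857% were called, which is 1 gene, and 587 genes had an unadjusted p below 0.05. Nr1d1 was lower in set B by a log2 difference of -0.65 (SE 0.15, 95% interval -0.96 to -0.35, unadjusted p = 2.5e-04, adjusted p = 0.390 by edgeR). Nr1d2 was lower too, with a log2 difference of -0.77 (SE 0.22, 95% interval -1.23 to -0.30, unadjusted p = 0.00257, adjusted p = 0.930 by edgeR). For both genes every kidney of set B lay below every kidney of set A, with an exact permutation p of 0.0286, the smallest that 4 against 4 can give, and 2 of 10 members were thus without overlap against 2.61% of all genes tested. DESeq2 called Nr1d1 alone of the members (log2 difference -0.64, adjusted p = 0.0130 with Benjamini-Hochberg adjustment), and limma-trend called 0. The difference between the sets therefore did not pass edgeR's test over all genes, although the groups were separate for both genes. The other 8 members had log2 differences of set B from set A of 0.12 (Arntl), 0.02 (Clock), -0.18 (Per1), 0.18 (Per2), 2.87 (Per3), 2.05 (Cry1), -0.20 (Cry2) and -0.94 (Dbp). The SE was 2.25 for Per3, 1.22 for Cry1 and 1.43 for Dbp.

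Arntl and Clock encode the activating pair. Arntl was measured at 42.3, 16.0, 19.9 and 0.340 CPM in controls 1 to 4. It was measured at 29.1, 27.6, 19.2 and 40.8 CPM in set A and at 37.3, 40.6, 24.3 and 24.2 CPM in set B. All 8 ischemic kidneys lay within the range of the controls, whose lowest library, replicate 4, held 13 Arntl counts (95% Poisson interval 0.181 to 0.581 CPM, counting error only). For the mean of the sets its log2 fold change was 0.63 (SE 0.58, 95% interval -0.58 to 1.85, adjusted p = 0.509 by edgeR's quasi-likelihood test), and with 1 kidney left out it ran from 0.22 (without control replicate 4) to 1.34 (without control replicate 1). In set A it was 0.57 (SE 0.65, adjusted p = 0.656 by edgeR) and in set B 0.69 (SE 0.65, adjusted p = 0.551). The exact permutation p for 8 against 4 was 0.0667, two-sided.

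Clock was measured at 87.5, 78.9, 93.6 and 47.0 CPM in controls, at 70.9, 83.8, 67.5 and 83.0 CPM in set A and at 96.7, 80.5, 75.2 and 56.5 CPM in set B. Its group means were 76.8 ± 20.7 (SD, n = 4), 76.3 ± 8.30 and 77.2 ± 16.6 CPM. For the mean of the sets Clock changed by 0.00 on the log2 scale, with a 95% interval of -0.38 to 0.38 (adjusted p = 0.999 by edgeR's quasi-likelihood test), and in sets A and B its log2 fold changes were -0.01 and 0.01 (SE 0.21 for both). A stretch of the Arntl promoter window, taken from RefSeq, is shown because it holds the RORE core, the letters that NR1D1 and the ROR receptors are known to bind, at position 31 after a start of the gene.
Arntl (GRCm38.p6, chr7:113207530-113207553, plus strand): aaggcagaaagTAGGTCAgggacg

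The Per genes encode repressors that also respond to acute signals, Per1 and Per2 above all. Per1 was measured at 61.7, 23.8, 35.5 and 91.5 CPM in controls 1 to 4. It was measured at 90.9, 71.8, 76.3 and 133 CPM in set A and at 65.1, 95.4, 57.6 and 110.5 CPM in set B. Set A overlapped with control replicate 4 and set B with control replicates 1 and 4. Per1 changed by a log2 fold change of 0.81 (SE 0.32, adjusted p = 0.0861 by edgeR's quasi-likelihood test, Benjamini-Hochberg adjusted) in set A, 0.63 (SE 0.32, adjusted p = 0.193) in set B and 0.72 (SE 0.29, 95% interval 0.11 to 1.32, adjusted p = 0.0750) for the mean, with an exact permutation p of 0.0364 for 8 against 4. Of the 12 fits that left out 1 kidney, the fit without control replicate 4 was the one that called Per1, and there the log2 fold change was 1.21 (adjusted p = 0.00888) in set A, 1.01 (adjusted p = 0.0266) in set B and 1.11 (adjusted p = 0.00717) for the mean by the same edgeR test. With all 12 kidneys Per1 was called in set A and in the mean without the low-count filter, with limma-trend and with a replicate block, in the mean also by DESeq2, and in set B with the block.

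Per2 was sparse in most kidneys. The controls gave 1.30, 1.51, 6.06 and 12.5 CPM, set A gave 0, 1.84, 1.34 and 4.04 CPM, and set B gave 1.08, 0.822, 0.532 and 5.71 CPM. The kidney without a count had a floor of 0.0952 CPM, the worth of 3 counts. The log2 fold change for the mean was -1.48 (SE 1.02, 95% interval -3.62 to 0.66, adjusted p = 0.339 by edgeR's quasi-likelihood test), and with 1 kidney left out it ran from -2.14 (without replicate 4 of set B) to -0.63 (without control replicate 4). It was -1.57 (SE 1.25, adjusted p = 0.465 by edgeR) in set A and -1.39 (SE 1.25, adjusted p = 0.521) in set B.

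Per3 had few or no counts in most kidneys. It was at 0, 0.520, 4.90 and 0.444 CPM in controls, at 0, 0, 0.925 and 0 CPM in set A and at 0.842, 3.54, 0 and 2.67 CPM in set B. In 5 of 12 kidneys the gene had no count, while 1 control held 127 counts, and no difference was detected. The 95% interval of the log2 fold change for the mean ran from -4.84 to 2.49. Against control it was -2.61 (SE 2.22) in set A and 0.26 (SE 2.10) in set B, neither called. Stretches around the motifs before Per1 and Per3 show how they differ, since Per1 holds an E-box and Per3 a pair of D-boxes, the letters bound by DBP, TEF and HLF.
Per1 (GRCm38.p6, chr11:69098759-69098818, plus strand): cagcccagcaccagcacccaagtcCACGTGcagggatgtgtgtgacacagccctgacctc
Per3 (GRCm38.p6, chr4:151044806-151044885, minus strand): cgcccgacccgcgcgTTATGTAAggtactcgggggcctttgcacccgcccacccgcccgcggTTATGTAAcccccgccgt

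The cryptochromes Cry1 and Cry2 are the partners of the PER proteins. Cry1 was measured at 0.863, 0.0520, 1.31 and 1.75 CPM in controls, at 0.857, 0.385, 4.14 and 0.181 CPM in set A and at 1.52, 2.15, 5.66 and 13.9 CPM in set B. In set B 3 of the 4 kidneys lay above every control, and the lowest did not. In set B its log2 fold change was 2.54 (SE 1.24, 95% interval -0.06 to 5.14, adjusted p = 0.165 by edgeR's quasi-likelihood test; exact permutation p = 0.0571), and in set A it was 0.49 (SE 1.18, adjusted p = 0.865). For the mean it was 1.52 (SE 1.10, adjusted p = 0.368 by edgeR), and from 0.74 (without replicate 3 of set A) to 1.93 (without control replicate 4) with 1 kidney left out. Cry2 was more abundant and showed no shift: 20.6, 36.7, 63.2 and 76.0 CPM in controls, 35.4, 28.4, 43.4 and 85.0 CPM in set A and 27.3, 50.5, 46.3 and 43.6 CPM in set B. Its log2 fold change for the mean was -0.13 (SE 0.31, 95% interval -0.78 to 0.52, adjusted p = 0.834 by edgeR), with -0.03 in set A and -0.23 in set B (SE 0.36 for both). Of its exon bases 295 are shared with D930015M05Rik on the opposite strand. The Cry1 stretch shown next holds an E'-box and an E-box, the Cry2 stretch an E'-box.
Cry1 (GRCm38.p6, chr10:85185090-85185149, minus strand): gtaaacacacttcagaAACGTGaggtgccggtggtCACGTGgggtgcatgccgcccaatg
Cry2 (GRCm38.p6, chr2:92434200-92434259, minus strand): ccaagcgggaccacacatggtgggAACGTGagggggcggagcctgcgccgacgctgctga

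Dbp encodes a PAR bZIP transcription factor and is among the most strongly rhythmic genes of peripheral tissues. It was measured at 0, 3.17, 8.80 and 23.9 CPM in controls 1 to 4. Set A gave 4.41, 1.75, 0.176 and 2.65 CPM, and set B gave 2.19, 0, 0 and 2.48 CPM. The controls thus spanned the whole range, with the highest and 1 of the 3 kidneys without a count among them. The log2 fold change for the mean was -2.47 (SE 1.17, 95% interval -4.92 to -0.01, unadjusted p = 0.0489, adjusted p = 0.137 by edgeR's quasi-likelihood test), and the exact permutation p on log2 CPM was 0.325. Without control replicate 4 it was -1.29 (adjusted p = 0.638 by edgeR). In set A it was -2.0 (SE 1.45, adjusted p = 0.409 by edgeR) and in set B -2.93 (SE 1.51, adjusted p = 0.192). Of the Dbp exon length 18.0% (539 bases) is shared with Sphk2 on the opposite strand, and its promoter window held none of the 5 motifs, as was the case for Clock; the Per2 window was not analysed here.

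The control kidneys differed widely from each other. Control replicate 4 had the lowest Arntl and Clock of the controls and the highest Per1, Per2, Cry1, Cry2, Nr1d1 and Dbp. Control replicate 1 was its opposite for Arntl, at 42.3 CPM the highest control, and for Dbp, Per2, Cry2 and Nr1d1, at which it was the lowest. Control replicate 1 was also the lowest control for Nr1d2, of which replicate 3 was the highest. Among the ischemic kidneys Arntl ranged from 19.2 to 40.8 CPM only, against 0.340 to 42.3 CPM in controls.

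**Figure D2:**
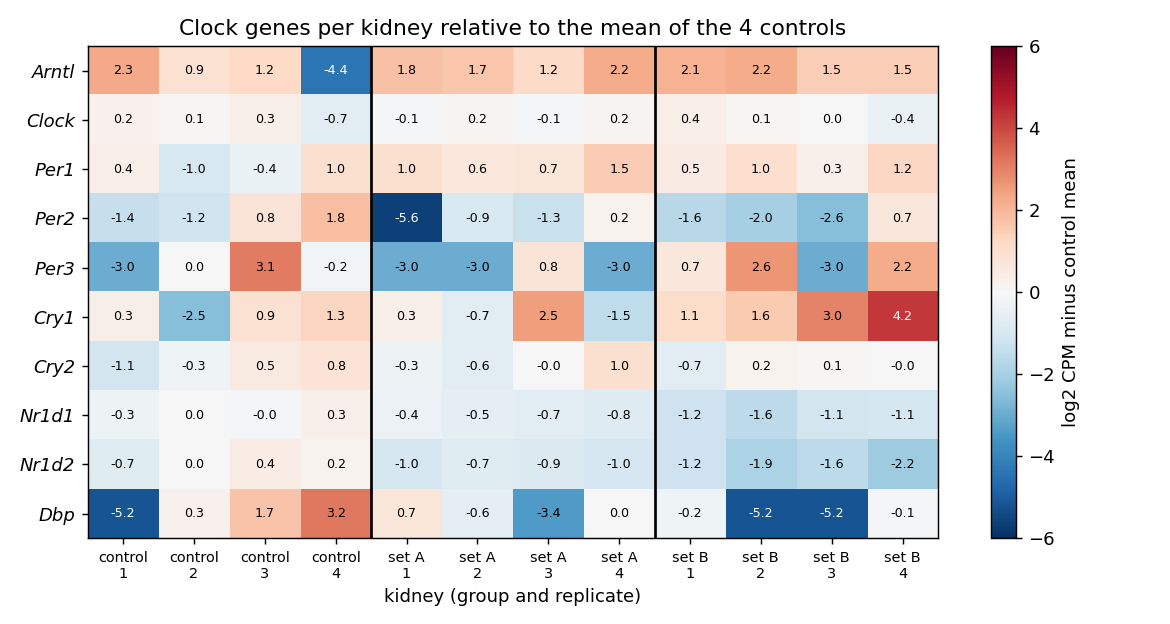
Clock genes (rows) in each of the 12 kidneys (columns) as the difference of log2 CPM from the mean of the 4 controls, with the value printed in each cell and a colour scale from -6 (blue) to 6 (red). Nr1d1 and Nr1d2 are below 0 in all 8 ischemic kidneys, while control replicate 4 is far below 0 for Arntl and above 0 for Dbp and control replicate 1 shows the opposite.

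The ratio of Arntl to Nr1d1, genes of opposite phase, was computed within each kidney as a difference of log2 CPM. It was -3.32, -5.04, -4.64 and -10.6 in controls 1 to 4, and it ran from -4.06 to -2.08 over the ischemic kidneys. The group means were -5.89 (SD 3.20, n = 4) in controls, -3.60 (SD 0.51) in set A and -2.81 (SD 0.61) in set B. The ischemic mean was higher by 2.69, with control replicate 1 inside the ischemic range. Without control replicate 4, which had 13 Arntl counts, the difference was 1.13, an alternative chosen after seeing the data. Ratios of Arntl to Dbp and of Cry1 to Per3 are not given, since 3 of 12 kidneys had no Dbp count and 5 of 12 no Per3 count.

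Of the wider clock pathway, 24 further genes were listed and 20 could be tested, Arntl2, Nfil3 and Fbxl21 being below the filter on low counts and Ciart having no row of that name. Of the 20, 14 were called for the mean of the sets, 10 lower and 4 higher, against 14.2% and 12.2% of all genes tested. The count was 13 of 20 in set A, against 22.3% of all genes, and 10 of 20 in set B, against 22.8%. Between set B and set A 0 of 20 were called by edgeR's quasi-likelihood test and 0 by DESeq2 and limma-trend, and 1 (Btrc) had an unadjusted p below 0.05. The median log2 fold change for the mean of the sets was -0.55 over the 20 genes, beside -0.03 over all genes.

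The largest changes were in the other 2 PAR bZIP factors, which share the D-box with DBP. Hlf was measured at 142, 159, 217 and 214 CPM in controls, at 21.5, 22.7, 19.0 and 24.7 CPM in set A and at 28.6, 10.4, 23.3 and 16.0 CPM in set B. Tef was measured at 137, 189.6, 199.5 and 249.8 CPM in controls, at 37.9, 37.9, 49.7 and 26.7 CPM in set A and at 18.8, 30.3, 45.5 and 51.1 CPM in set B. For both genes the lowest control was well above the highest ischemic kidney. The log2 fold change for the mean was -3.14 for Hlf (SE 0.20, adjusted p = 5.52e-10 by edgeR's quasi-likelihood test, Benjamini-Hochberg adjusted), 8.80-fold lower, and -2.38 for Tef (SE 0.22, adjusted p = 5.67e-08), 5.21-fold lower. The sets gave nearly the same values, -3.06 and -3.22 for Hlf and -2.35 and -2.42 for Tef in sets A and B, whereas for Nr1d1 and Nr1d2 every kidney of set B lay below set A. Unlike Dbp, both genes were well above the floor in every library.
Tef (GRCm38.p6, chr15:81802423-81802672, plus strand): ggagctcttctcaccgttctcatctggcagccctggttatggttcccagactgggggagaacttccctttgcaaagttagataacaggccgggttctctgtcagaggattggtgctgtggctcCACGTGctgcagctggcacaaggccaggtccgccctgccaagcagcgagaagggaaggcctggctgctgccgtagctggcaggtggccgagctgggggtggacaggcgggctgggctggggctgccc
Hlf (GRCm38.p6, chr11:90390918-90391167, minus strand): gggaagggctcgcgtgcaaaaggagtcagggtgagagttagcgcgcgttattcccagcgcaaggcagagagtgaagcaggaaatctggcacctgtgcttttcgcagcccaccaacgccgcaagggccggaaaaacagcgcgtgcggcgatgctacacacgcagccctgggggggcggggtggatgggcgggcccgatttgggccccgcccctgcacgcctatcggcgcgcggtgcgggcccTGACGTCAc
These 250 bases before the start, again from RefSeq, are shown because Tef and Hlf fell furthest; Tef holds an E-box at -127 and Hlf a CRE at -9.

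Usp2, a deubiquitinase gene that is a rhythmic clock output in kidney and liver, had 203, 232, 250.4 and 399.5 CPM in controls and 54.4 to 119 CPM over the 8 ischemic kidneys. Its log2 fold change was -1.89 (SE 0.21, adjusted p = 6.51e-07 by edgeR's quasi-likelihood test, Benjamini-Hochberg adjusted), 3.70-fold lower. Among other outputs Nampt, the NAD salvage enzyme, fell by 0.67 on the log2 scale, from 422 to 565 CPM in controls to 232 to 417 CPM after ischemia.

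Of the nuclear receptors that compete with REV-ERB at RORE sites, Rora fell from 108 to 136 CPM in controls to 50.3 to 82.5 CPM in ischemic kidneys (log2 fold change -0.90, SE 0.15, adjusted p = 7.84e-05 by edgeR). Rorb was near the floor, at 0 to 3.65 CPM, and was not called. Arntl, on which both kinds of receptor act, was not called.

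The repressor gene Bhlhe40 (DEC1) rose, from 98.3 to 168 CPM in controls to 192 to 310.0 CPM after ischemia (log2 fold change 0.79, SE 0.14, adjusted p = 1.85e-04 by edgeR). Its relative Bhlhe41 was at 0 to 6.81 CPM and not called. The casein kinase 1 genes Csnk1d and Csnk1e, whose products mark PER proteins for turnover, rose by 0.58 (SE 0.10, adjusted p = 1.21e-04 by edgeR) and 1.32 (SE 0.23, adjusted p = 1.58e-04 by edgeR) on the log2 scale. Csnk1e was at 20.7 to 29.8 CPM in controls and at 56.3 to 72.3 CPM in 7 ischemic kidneys, with set A replicate 2 at 27.7 CPM.

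Of the ubiquitin ligase genes that act on CRY and PER proteins, Btrc and Fbxw11 fell by 0.59 and 0.51 on the log2 scale for the mean. Btrc fell in set A (log2 fold change -0.89, adjusted p = 0.00154 by edgeR), whereas in set B it was not called (-0.29, adjusted p = 0.335). Fbxw11 lost its call without control replicate 3 (adjusted p = 0.0724 by edgeR) or 4 (adjusted p = 0.0505). Btrc was at 55.7 to 72.7 CPM in controls, while set A spanned 27.7 to 42.7 and set B 47.4 to 57.3 CPM. Set B lay above set A without overlap by 0.60 on the log2 scale (SE 0.19, unadjusted p = 0.00487, adjusted p = 0.930 by edgeR). Tsc22d3 fell by 0.98 for the mean (adjusted p = 0.0186 by edgeR) and lost its call without control replicate 1 (adjusted p = 0.109) or 4 (adjusted p = 0.0897). It was called in set A and not in set B. Tspan4 rose by 0.66 for the mean (adjusted p = 0.0465 by edgeR), a call kept in only 4 of the 12 fits that left out 1 kidney, with adjusted p from 0.0127 to 0.174. It was called neither in set A nor in set B. Npas2, Csnk1a1, Gsk3b and Wee1 were not called, with log2 fold changes of 0.26, 0.06, 0.24 and 0.96.

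**Figure D3:**
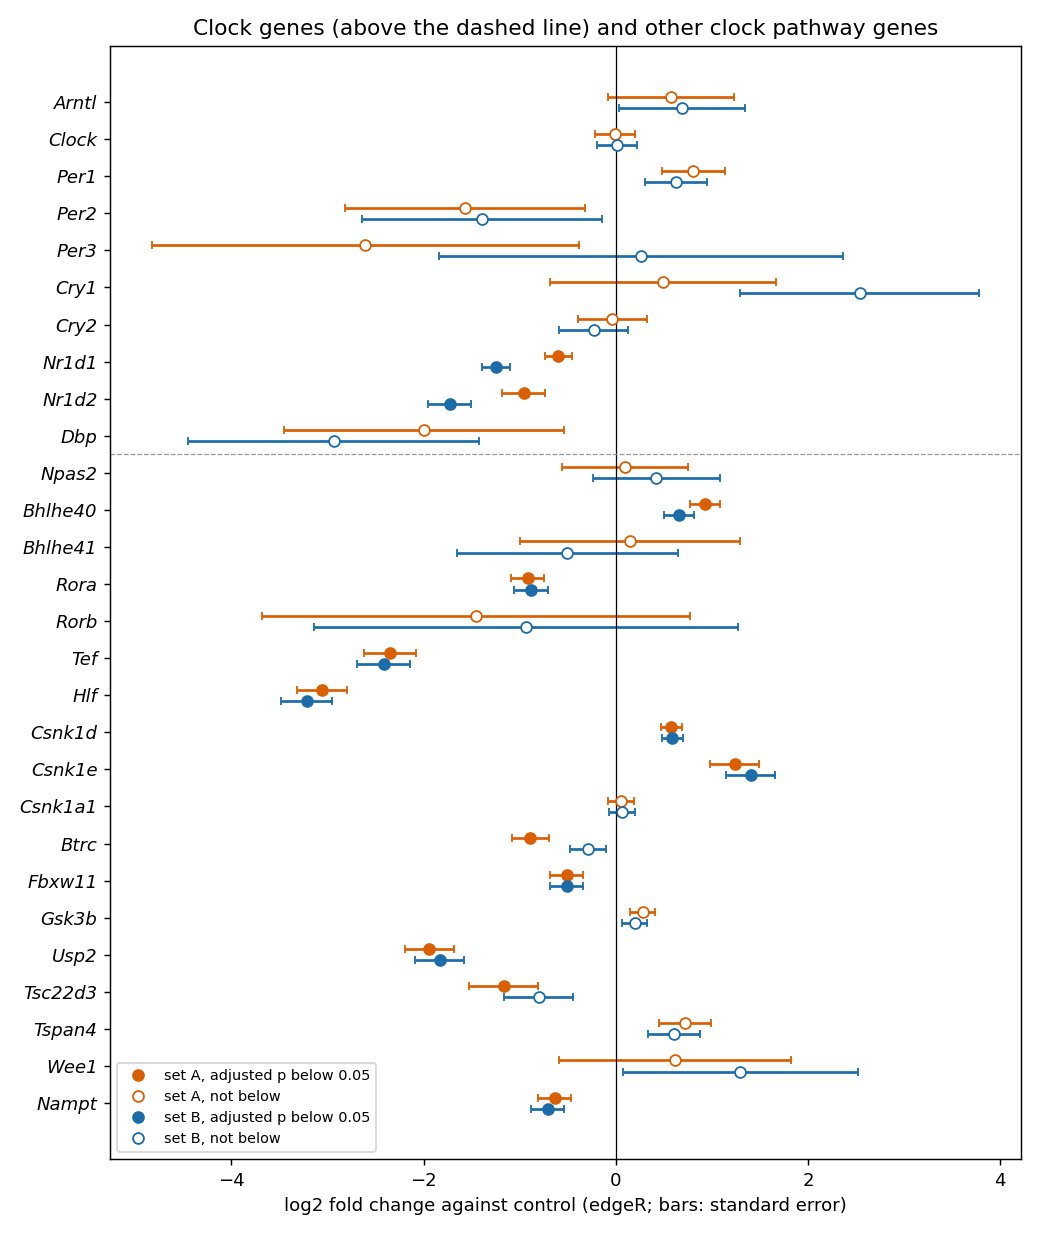
Log2 fold change against control (horizontal axis) for ischemia set A (orange) and set B (blue). The 10 clock genes are above the dashed line and tested genes of the wider pathway below it. Bars are the standard error derived from edgeR's log2 fold change and F value, and filled circles have an adjusted p below 0.05. Nr1d1 and Nr1d2 are the only filled clock genes, at -0.60 and -0.96 in set A and -1.25 and -1.73 in set B, and Hlf lies furthest left of the filled circles.

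The members were ranked by level per length, as CPM per kilobase of exon. Nr1d1 was the highest in controls, at 169 ± 27.5 (SD, n = 4), followed by Nr1d2 at 33.0 ± 10.2 and Per1 at 9.43 ± 5.34 CPM per kilobase. Cry2 (7.77), Clock (5.59), Dbp (3.0), Arntl (2.61), Per2 (0.912), Cry1 (0.298) and Per3 (0.153 CPM per kilobase) followed. Only the steps from Nr1d1 to Nr1d2 and from Nr1d2 to Per1 were without overlap between the kidneys, and each later neighbour overlapped with the next. In set A Nr1d1 was at 112 and Nr1d2 at 17.0 CPM per kilobase, and Nr1d2 overlapped with Per1 at 16.5. In set B Nr1d1 was at 71.0, Per1 at 14.6 and Nr1d2 at 9.95 CPM per kilobase, so that Per1 had taken the place after Nr1d1, with overlap between Per1 and Nr1d2.

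**Figure D4:**
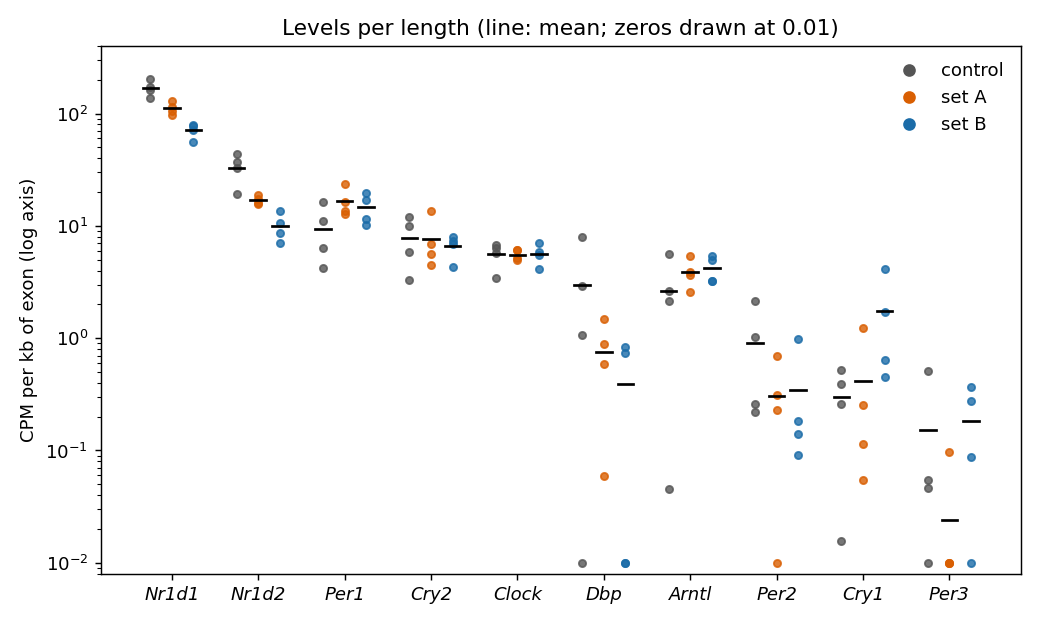
CPM per kilobase of exon (vertical log axis, with 0 drawn at 0.01) of the clock genes, ordered by their mean in controls, with each point 1 kidney and the line the mean of 4. Nr1d1 lies above all other members in every group, and Nr1d2 stands clear of Per1 in controls only.

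Over the 8 ischemic kidneys the clock genes showed no relation that passed the adjustment. Of 45 pairs of members, 1 had an exact permutation p below 0.05 for Pearson's r and 0 for Spearman's rho, and 0 after Benjamini-Hochberg adjustment, where the smallest adjusted values were 0.565 and 0.707. The highest pair was Nr1d1 with Nr1d2 (r = 0.74, exact permutation p = 0.0378, rho = 0.69, exact permutation p = 0.0694, n = 8), and r was 0.71 without the 2 kidneys farthest from the median of Nr1d1. With values centred on the mean of each set r was 0.00 for this pair. Over the 45 pairs the centred r ran from -0.92 (Arntl with Cry1) to 0.79 (Clock with Nr1d2), and the centred values were not tested. Arntl with Nr1d1 gave r = -0.41 (exact permutation p = 0.311). In pairs with Dbp, Per2 or Per3 the kidneys without a count took a value set by the prior count.

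To find the genes most like Dbp, deviations of the 12 kidneys from their group means in log2 CPM were compared across 8513 genes whose mean log2 CPM reached 1. Among the highest correlations were those with Jrkl and Tapt1 (both 0.89), Myo18a and Dgcr14 (both 0.87), and the lowest with Pde4a (-0.87), Rnf114 and Cdkal1 (both -0.86), Prps1 (-0.85) and Rps29 (-0.84). In 3 of the 12 kidneys Dbp had no count and its log2 CPM was set by the prior count, so these correlations rest in part on values that were not measured. These values describe 12 kidneys that share libraries, and the extremes were picked from all 8513 genes.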

How the data were processed

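RNA was extracted from kidney tissue, and poly(A) libraries were made with a stranded kit and sequenced to reads of 100 bases. The deposited table holds raw counts per gene symbol for 12 kidneys, which the authors made with STAR (mm10) and HTSeq after FastQC, per the labels and methods. Versions, the annotation release and the strand setting of HTSeq are not given in the sources used here. Counts were analysed as deposited: filterByExpr (minimum count 10, minimum total 15) kept 11664 of 23420 genes, TMM factors lay between 0.968 and 1.03, and edgeR's quasi-likelihood F-test (edgeR 4.0.16, R 4.3.3) was fitted to all 12 kidneys with 1 coefficient per group, two-sided, with Benjamini-Hochberg adjustment over all genes tested at a threshold of 0.05. Exact permutation tests used log2 CPM with a prior count of 2. Poisson intervals and floors cover counting error only, whereas intervals of fold changes include the spread between kidneys. Standard errors and intervals of fold changes were derived from edgeR's log2 fold change and F value, and are approximate. Exon lengths, positions and overlaps came from GENCODE on GRCm38 (mm10). RefSeq promoter windows matched 9 of 10 members and 17 of 24 further genes. The calculations were tested on simulated data. DESeq2 1.42.0, limma 3.58.1, RLE scaling, other filters, fits to the groups compared, a replicate block and leaving out each kidney were tried as alternatives.

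All 10 members were named in every comparison. Of the further clock genes, those called in the mean of the sets or between the sets were named, with up to 3 others per functional group, and likewise up to 3 glucocorticoid targets, Thra, and the 5 genes most and least like Dbp. Some genes that these rules name are not reported here. The members and lists were chosen with earlier results of these data known. Samples were grouped by title. Each pair of replicates differed beyond sampling noise (chi-square per df 48.9 or more). Over the 8513 genes whose mean log2 CPM reached 1, same-numbered kidneys of different groups did not deviate together. Among the members, replicate 4 was the highest kidney of all 3 groups for Per1 and for Per2. For the other members the highest kidney did not have the same number in all 3 groups. This pattern was not tested.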

Additional observations from a re-analysis of the deposited data

Results flagged for a closer look

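In 4 of 30 groups of 4 kidneys (10 members in 3 groups) 1 kidney stood apart from the other 3. Its gap was larger than Dixon's 95% critical share of the range. The chance rate of about 1 in 20 groups holds for normally distributed values. It does not hold for CPM of sparse genes, so the 4 groups are not read as an excess. Per2 was at 5.71 CPM in set B replicate 4, against 0.532 to 1.08 CPM in the other 3. Per3 was at 4.90 CPM in control replicate 3, against 0 to 0.520 CPM in the other controls, and at 0.925 CPM in set A replicate 3, where the other 3 kidneys had no count. Cry1 was at 4.14 CPM in set A replicate 3, against 0.181 to 0.857 CPM in the others. All 4 values belong to members of low abundance, and none of these genes was called in any comparison by edgeR's quasi-likelihood test.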

How the results depend on the processing

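Nr1d1 and Nr1d2 kept their direction and call against control, in set A, set B and the mean, under every alternative run. Between set B and set A the number of clock genes called was 0, and 1 with DESeq2; the number of all genes called was 1, and 6 without the low-count filter, 0 with only the 2 groups compared in the fit, 0 with limma-trend, 29 with DESeq2 and 0 to 7 when 1 kidney was left out. Per1 was called in set A and in the mean without the low-count filter, with limma-trend and with the replicate block, in the mean also with DESeq2, and in set B with the block.

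Values that changed sign lay near 0 or belonged to sparse genes. Clock in set A was 0.0129 with RLE scaling, 0.0233 with the filter on CPM, 0.0400 with the block, 0.0226 with 2 groups, 0.0326 with limma-trend and 0.0129 with DESeq2. Clock without the filter was -0.00976 in set B and -0.0187 in the mean, and between the sets it was -0.0220 with the block and -0.00206 with limma-trend. Cry2 in set A was 0.0213 with the block and 0.00831 with limma-trend. The cause was not tested.

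With 1 kidney left out at a time, the log2 fold changes of the 10 members that changed sign ran as follows. Arntl was -0.0516 to 0.32 between the sets. Clock was -0.18 to 0.0834 in set A, -0.11 to 0.14 between the sets, -0.17 to 0.13 in set B and -0.17 to 0.0923 in the mean. Cry1 was -1.04 to 0.92 in set A. Cry2 was -0.48 to 0.26 in set A, -0.38 to 0.23 between the sets, -0.49 to 0.054 in set B and -0.39 to 0.16 in the mean. Per1 was -0.36 to 0.0429 between the sets. Per2 was -1.14 to 0.94 between the sets. Per3 was -0.35 to 2.41 in set B and -3.97 to 0.97 in the mean.

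The replicate block, or pairing by number, gave 3 clock genes (Nr1d1, Nr1d2 and Per1) in each comparison with control. It gave 2491, 2531 and 2974 of all genes in set A, set B and the mean. Over the 8513 genes compared, same-numbered kidneys correlated at -0.0824 to 0.0764 in their deviations. A correlation over so many genes cannot show whether same-numbered kidneys share a mouse, a day or an hour of collection. A fit with only the groups compared cannot be made for the mean of the sets. Low counts in some kidneys and a wide spread between kidneys of 1 group limited what could be said of Per3, Cry1, Per2 and Dbp. Within the controls Dbp ran from 0 to 915 counts and Per2 from 27 to 478.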

Other observations

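Of 7 known glucocorticoid targets, a list taken because adrenal hormones act on Per1 and on the clock of the kidney, 5 were called for the mean of the sets by edgeR's quasi-likelihood test, 3 lower and 2 higher, against 26.4% of all genes tested (14.2% lower and 12.2% higher). In set A 4 of 7 were called and in set B 3 of 7, against 22.3% and 22.8% of all genes. Mt2, a metallothionein gene, rose from 11.0 to 27.1 CPM in controls to 229 to 719 CPM after ischemia (log2 fold change 4.71, SE 0.33). Klf9, a transcription factor gene that is also under clock control, fell from 192 to 251 CPM to 99.4 to 141 CPM (log2 fold change -0.86, SE 0.12, adjusted p = 2.22e-05 by edgeR). Fkbp5 was at 4.45 to 11.2 CPM in controls and 9.10 to 19.6 CPM after ischemia (log2 fold change 0.88, SE 0.35, adjusted p = 0.0698 by edgeR). The 7 targets thus had no common direction, and 1 of them, Tsc22d3, is also in the wider clock list.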
